A study of Homo sapiens with 18 samples.

Results

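The genes described here encode mTOR complexes 1 and 2 and the lysosomal machinery that reports nutrients to them. The list holds 46 genes, chosen by name with earlier results of these data known. Shares called in the list are therefore set beside those of all genes as a description only. Each gene matched 1 row of a table of 60623 human genes, and SAMTOR was found under the symbol BMT2. All 46 passed the filter on low counts, among 16414 genes tested. RNA was sequenced from HEK-293E cells, a human embryonic kidney line, in 18 libraries that form 6 groups of 3. The groups were starved cells with Torin1, starved cells, cells fed for 1 h with Torin1, cells fed for 1 h, cells fed for 4 h with Torin1, and cells fed for 4 h. Torin1 is an ATP-competitive inhibitor of the mTOR kinase. Every group had spent a night in DMEM with little serum, and feeding meant changing to the usual serum-rich growth medium. The labels used here state neither the dose of Torin1 nor how long it was given. They do not say whether the libraries of a group came from separate cultures either, so the tests rest on the variation among these libraries, which may be technical.

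mTOR complex 1 is built on RPTOR and mTOR complex 2 on RICTOR and MAPKAP1, around the same kinase. At the lysosome, Rag GTPases held by Ragulator recruit complex 1 when amino acids are present, and RHEB, which the TSC complex switches off, activates it there. GATOR1 turns the Rags off, GATOR2 opposes GATOR1, KICSTOR anchors GATOR1, and the Sestrins, CASTORs, SAMTOR and SLC38A9 report amino acids or S-adenosylmethionine to this circuit. RNA levels were measured here, not kinase activity.

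Libraries held 10510689 to 13690035 counts, and the 46 genes took 0.522% to 0.601% of them. Levels are given as CPM, counts relative to library size, scaled with edgeR's TMM factors, and 3 counts in a library equal 0.219 to 0.285 CPM. Libraries with Torin1 had 15150 to 15714 genes with at least 10 reads, against 14404 to 14868 in libraries without it, a difference whose part in the results was not tested. A list of 9 genes typical of HEK-293 cells, led by the intermediate filament gene VIM, summed to 1360 to 1720 CPM with Torin1 and to 907 to 1150 CPM without it. Lists for other cell types were low: 7 fibroblast genes summed to 8.49 to 44.1 CPM, 6 immune genes to 1.4 to 5.61 CPM and 5 endothelial genes to 0.481 to 2.82 CPM, with CD3E at 0 in 17 libraries, CDH5 in 16 and DCN in 12. In bulk RNA, a lower level in every cell and the loss of RNA from some of the cells cannot be told apart.

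With TMM scaling, Torin1 lowered more of these genes than it raised. The genes that fell furthest included negative regulators of the pathway, but also SEH1L of GATOR2, the complex that opposes GATOR1. RHEB, which activates complex 1, fell in every feeding state too, and TSC2, of the complex that switches RHEB off, rose in every state. The list therefore did not move by the sign of its role. A gene is called higher or lower when its edgeR quasi-likelihood p-value, adjusted over all genes tested, is under 0.05, and a log2 fold change is Torin1 over no Torin1. In starved cells Torin1 raised 14 of the 46 genes, against 33.9% of all genes tested, and lowered 18, against 29.6%. In 1 h fed cells it raised 15, against 33.2% of all genes, and lowered 21, against 29.9%. In 4 h fed cells it raised 6, against 27.4% of all genes, and lowered 18, against 28.6%. The median log2 fold change of the 46 genes was −0.08, −0.10 and −0.09 in starved cells, 1 h fed cells and 4 h fed cells, and that of all genes was 0.09, 0.06 and 0.02.

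In all 3 feeding states Torin1 raised the same 5 genes, 10.9% of the list against 18.8% of all genes tested, and lowered the same 13, 28.3% of the list against 19.6% of all genes. The 5 were TSC2, WDR59, CASTOR1, SLC38A9 and SESN3. The 13 were DDIT4, SESN2, KPTN, SEH1L, AKT1S1, RHEB, LAMTOR3, RRAGA, RRAGC, MAPKAP1, TBC1D7, NPRL3 and RPS6KB1. SEC13 moved both ways, higher in 1 h fed and lower in 4 h fed cells. Scaling to total counts instead of TMM shifted the median of all genes up by 0.14, 0.11 and 0.16, and the split of calls in the list became 18 higher and 17 lower in starved, 16 and 17 in 1 h fed, and 10 and 12 in 4 h fed cells. With that scaling, 61.5%, 59.8% and 62.6% of the calls over all genes were higher; no called member changed sign under it.

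**Figure D1:**
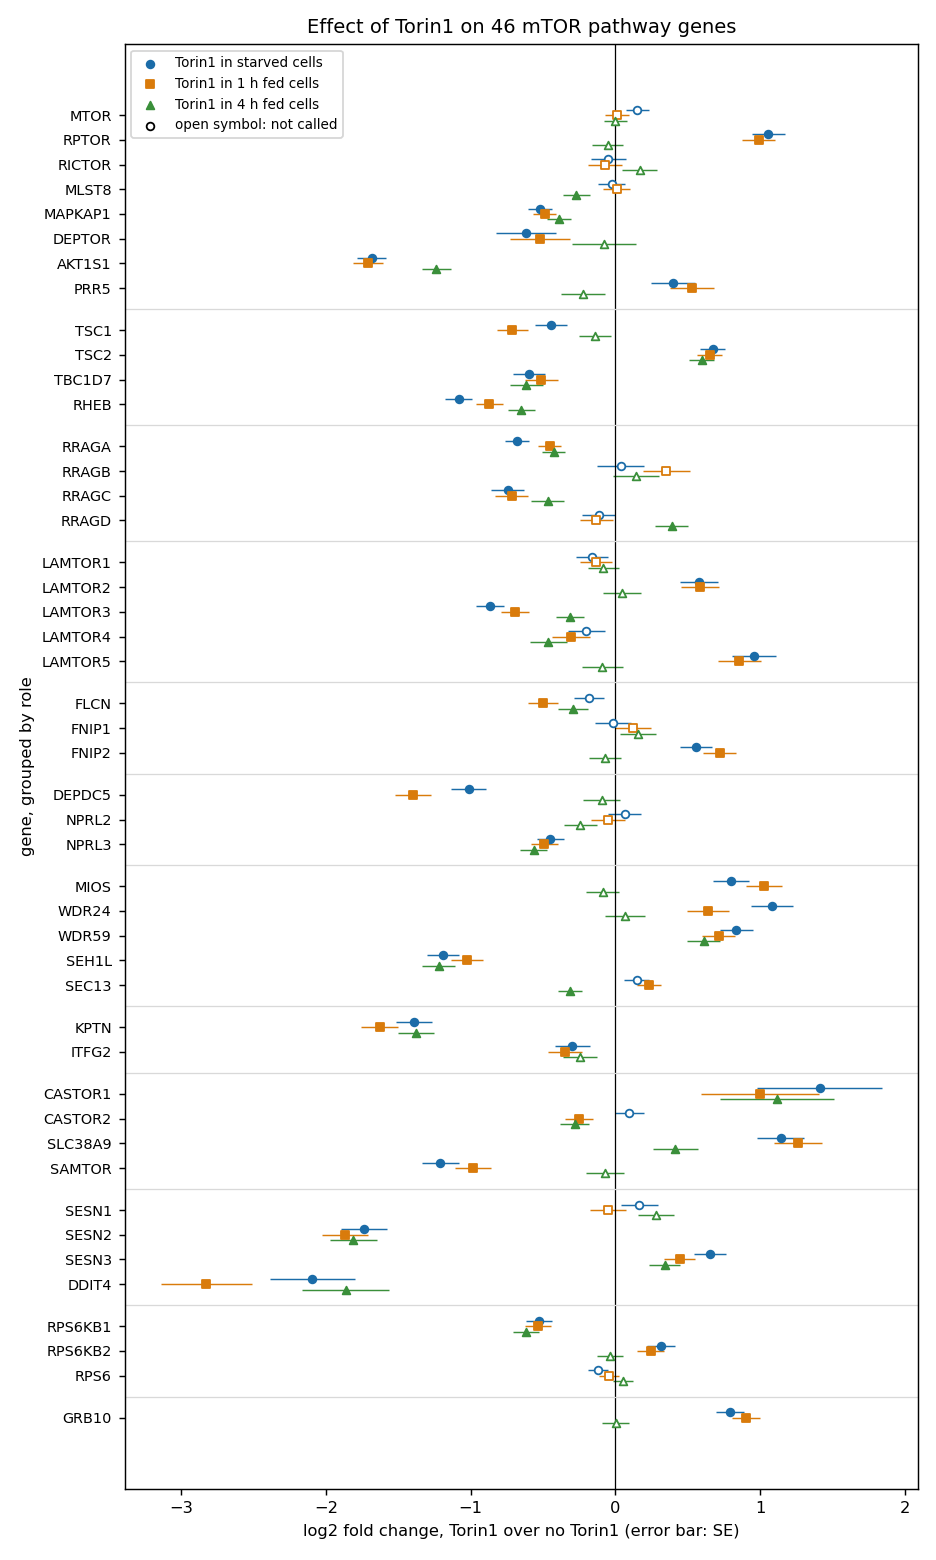
Log2 fold changes of Torin1 over no Torin1 (x axis) for the 46 genes (y axis, grouped by role), with the standard error as the bar. Circles are starved, squares 1 h fed and triangles 4 h fed cells, and open symbols were not called; DDIT4, SESN2, KPTN, SEH1L and AKT1S1 lie below −1 in all 3 states, while MTOR lies between 0.00 and 0.15.

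DDIT4 and SESN2, stress-induced inhibitors of mTOR complex 1, fell furthest. DDIT4 (REDD1) releases the TSC complex to act on RHEB. Its level was 26.6, 16.8 and 21.8 CPM in the starved, 15.2, 9.16 and 10.3 CPM in the 1 h fed and 22.4, 13.8 and 13.8 CPM in the 4 h fed libraries with Torin1. Without Torin1 it was 124, 78.8 and 77.0 CPM in the starved, 109, 66.7 and 69.9 CPM in the 1 h fed and 73.5, 54.0 and 54.7 CPM in the 4 h fed libraries. The highest library with Torin1 lay below the lowest without it, and the library numbered 1 was the highest of its group in all 6 groups. Torin1 changed DDIT4, on the log2 scale, by −2.10 (SE 0.29, edgeR adjusted p = 3.01e-05) in starved cells, −2.83 (SE 0.32, edgeR adjusted p = 3.24e-06) in 1 h fed cells and −1.87 (SE 0.30, edgeR adjusted p = 0.000141) in 4 h fed cells. An antisense transcript, DDIT4-AS1, overlaps the gene by up to 566 exonic bases and averaged 8.64 CPM over all libraries, against 46.3 CPM for DDIT4. It moved alongside, by −2.16 (SE 0.28, edgeR adjusted p = 2.18e-07) in starved cells, and whether the counting used strand is not given in the sources used here, so reads of the pair cannot be told apart.

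SESN2, a leucine sensor that binds GATOR2, was the most abundant Sestrin gene per transcript length in cells without Torin1. Its level was 55.9, 43.0 and 50.6 CPM in the starved, 70.0, 45.7 and 50.3 CPM in the 1 h fed and 54.7, 47.4 and 48.6 CPM in the 4 h fed libraries with Torin1. Without Torin1 it was 179, 178 and 143 CPM in starved, 206, 184 and 216 CPM in 1 h fed and 204, 186 and 139 CPM in 4 h fed libraries. Libraries with and without Torin1 did not overlap. The log2 fold change was −1.74 (SE 0.16, edgeR adjusted p = 4.29e-08) in starved, −1.87 (SE 0.16, edgeR adjusted p = 1.59e-08) in 1 h fed and −1.81 (SE 0.16, edgeR adjusted p = 4.09e-08) in 4 h fed cells. SESN3, a paralogue, rose by 0.65 (SE 0.11), 0.45 (SE 0.11) and 0.34 (SE 0.11), and SESN1 was not called, with 0.17, −0.05 and 0.28. SESN2 held 45.2% ± 4.07 of the length-scaled Sestrin RNA in starved cells with Torin1 and 78.0% ± 1.95 in starved cells without it (SD, n = 3 each). In 4 h fed cells the shares were 48.4% ± 1.45 with Torin1 and 80.6% ± 2.37 without it.

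**Figure D2:**
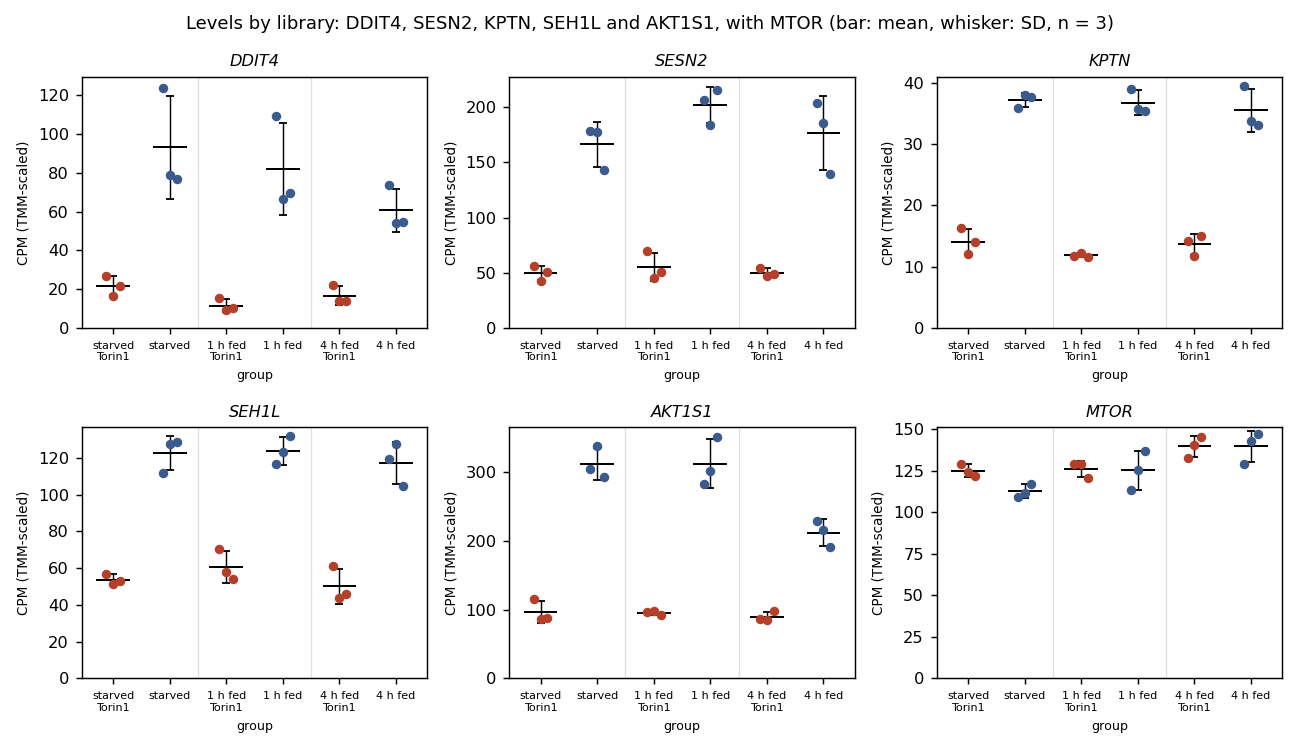
CPM of DDIT4, SESN2, KPTN, SEH1L, AKT1S1 and MTOR (y axes, from 0) in each of the 18 libraries by group (x axes; Torin1 in red, no Torin1 in blue), with the mean and SD of 3 libraries. The groups with Torin1 lie below those without for the first 5 genes, and MTOR lies between 109 and 147 CPM throughout.

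Among the subunits of the mTOR complexes, the kinase gene itself was not called, AKT1S1 fell in all 3 states and RPTOR rose in 2 of them. MTOR stood at 129, 124 and 122 CPM in the starved, 129, 129 and 121 CPM in the 1 h fed and 133, 141 and 146 CPM in the 4 h fed libraries with Torin1. Without Torin1 it stood at 109, 112 and 117 CPM in starved, 114, 125 and 137 CPM in 1 h fed and 129, 143 and 147 CPM in 4 h fed libraries. Torin1 and control libraries overlapped in both fed states; in starved cells the 3 Torin1 libraries were the higher ones. The log2 fold changes were 0.15 (95% interval −0.02 to 0.33) in starved, 0.01 (−0.16 to 0.19) in 1 h fed and 0.00 (−0.17 to 0.17) in 4 h fed cells, and none was called with TMM scaling. With total-count scaling the starved value became 0.29 and was called.

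AKT1S1 (PRAS40) is an inhibitory subunit and substrate of complex 1. Libraries with Torin1 had 116, 86.4 and 88.4 CPM when starved, 96.6, 97.4 and 92.2 CPM after 1 h and 86.7, 85.2 and 97.4 CPM after 4 h of feeding. Without Torin1 they had 304, 339 and 292 CPM in starved, 282, 302 and 351 CPM in 1 h fed and 229, 215 and 191 CPM in 4 h fed libraries. The groups did not overlap, and the 4 h fed libraries were the lowest of those without Torin1. Torin1 changed AKT1S1 by −1.69 (SE 0.10, edgeR adjusted p = 1.63e-14) in starved, −1.71 (SE 0.10, edgeR adjusted p = 1.31e-14) in 1 h fed and −1.24 (SE 0.10, edgeR adjusted p = 2.28e-11) in 4 h fed cells. Exons of TBC1D17 overlap it by at most 320 bases, and the mean of 29.8 CPM for TBC1D17 compares with 182 CPM for AKT1S1.

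RPTOR, the scaffold that brings substrates to complex 1, rose in starved and 1 h fed cells. It had 75.4, 68.2 and 66.2 CPM in starved libraries with Torin1, against 31.0, 30.3 and 39.6 CPM in those without. The 1 h fed libraries had 62.7, 69.7 and 75.7 CPM with Torin1, against 36.5, 36.9 and 31.5 CPM without. After 4 h of feeding there were 63.1, 60.3 and 70.3 CPM with Torin1 and 59.9, 65.6 and 75.4 CPM without. Only the 4 h pair overlapped. The log2 fold changes were 1.06 (SE 0.11, edgeR adjusted p = 1.47e-09), 0.99 (SE 0.11, edgeR adjusted p = 5.23e-09) and −0.05 (SE 0.11, edgeR adjusted p = 0.703). RICTOR, its counterpart in complex 2, was not called in any state (−0.05, −0.07 and 0.17).

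The other subunits moved less. MAPKAP1 (SIN1), a complex 2 subunit, fell, with log2 fold changes of −0.52 (SE 0.08), −0.49 (SE 0.08) and −0.39 (SE 0.08) in starved cells, 1 h fed cells and 4 h fed cells. PRR5, which binds RICTOR, rose in starved cells by 0.40 (SE 0.15, edgeR adjusted p = 0.0250) and in 1 h fed cells by 0.53 (SE 0.15, edgeR adjusted p = 0.00310). DEPTOR, an inhibitor of both complexes at 10.1 ± 0.190 CPM in starved cells without Torin1, changed by −0.62 (SE 0.21, edgeR adjusted p = 0.0108) in starved and −0.52 (SE 0.21, edgeR adjusted p = 0.0307) in 1 h fed cells. MLST8, shared by both complexes, was called only in 4 h fed cells, at −0.27 (SE 0.09, edgeR adjusted p = 0.0136). The difference of that effect from the one in starved cells was not called (−0.25, SE 0.13, edgeR adjusted p = 0.180).

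In the TSC complex, which inactivates RHEB, the subunits moved in opposite directions. TSC2, the GTPase-activating subunit, averaged 248 ± 5.21 CPM with Torin1 and 156 ± 10.4 CPM without it in starved cells (SD, n = 3 each). It rose by 0.67 (SE 0.09, edgeR adjusted p = 6.22e-08), 0.65 (SE 0.09, edgeR adjusted p = 9.61e-08) and 0.60 (SE 0.09, edgeR adjusted p = 7.22e-07) in starved cells, 1 h fed cells and 4 h fed cells. Exons of PKD1 and NTHL1 on the other strand overlap TSC2 by up to 778 and 383 bases, at 81.8 and 40.9 CPM, against 219 CPM for TSC2. In starved cells Torin1 changed PKD1 by 0.94 (SE 0.19, edgeR adjusted p = 0.000518) and NTHL1 by −0.96 (SE 0.11, edgeR adjusted p = 4.12e-09). TSC1, the stabilising subunit, fell in starved cells (−0.45, SE 0.11, edgeR adjusted p = 0.000733) and 1 h fed cells (−0.71, SE 0.11, edgeR adjusted p = 1.39e-06) and was not called in 4 h fed cells (−0.14). TBC1D7, the third subunit, fell, with log2 fold changes of −0.60 (SE 0.11), −0.51 (SE 0.11) and −0.62 (SE 0.11).

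RHEB, the GTPase that activates complex 1, fell in every state. With Torin1 it was at 99.1, 84.5 and 98.9 CPM in starved, 109, 102 and 108 CPM in 1 h fed and 106, 99.7 and 88.7 CPM in 4 h fed libraries. Libraries without Torin1 had 195, 211 and 193 CPM in starved, 197, 186 and 199.7 CPM in 1 h fed and 169.7, 163 and 129.7 CPM in 4 h fed libraries. The groups did not overlap, and the gap was narrowest after 4 h of feeding. Torin1 changed RHEB by −1.08 (SE 0.09, edgeR adjusted p = 1.53e-11), −0.87 (SE 0.09, edgeR adjusted p = 1.36e-09) and −0.65 (SE 0.09, edgeR adjusted p = 5.50e-07). The 3 named RHEB pseudogenes summed to 1.02 CPM.

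Of the 4 Rag GTPases, RRAGA and RRAGC fell in all 3 states. RRAGA averaged 76.5 ± 3.50 CPM in starved cells with Torin1 and 123 ± 4.89 CPM in those without. It changed by −0.68 (SE 0.08, edgeR adjusted p = 1.01e-08), −0.46 (SE 0.08, edgeR adjusted p = 1.07e-05) and −0.43 (SE 0.08, edgeR adjusted p = 3.56e-05) in starved cells, 1 h fed cells and 4 h fed cells. RRAGC changed by −0.74 (SE 0.11, edgeR adjusted p = 1.36e-06), −0.72 (SE 0.11, edgeR adjusted p = 2.59e-06) and −0.47 (SE 0.11, edgeR adjusted p = 0.000870). RRAGB was called in no state (0.04, 0.35 and 0.14), and RRAGD was higher in 4 h fed cells, by 0.39 (SE 0.12, edgeR adjusted p = 0.00469). A Rag dimer pairs RRAGA or RRAGB with RRAGC or RRAGD. RRAGA made up 87.7% ± 0.208 of the length-scaled RNA of its pair with Torin1 and 92.7% ± 0.424 without it in starved cells. The share of RRAGC in its pair was 63.8% ± 6.11 with Torin1 and 71.0% ± 5.43 without it in starved cells, where the libraries overlapped. It was 61.1% ± 6.01 with Torin1 and 70.4% ± 2.40 without in 1 h fed cells, and 63.7% ± 1.59 with Torin1 and 73.2% ± 3.24 without in 4 h fed cells (SD, n = 3 each), with no overlap in either state.

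Ragulator, the 5-subunit lysosomal anchor of the Rags, moved unevenly. LAMTOR3 fell in all 3 states and LAMTOR2 and LAMTOR5 rose in starved and 1 h fed cells. LAMTOR4 was lower in 1 h fed (−0.31, SE 0.13, edgeR adjusted p = 0.0430) and 4 h fed cells (−0.46, SE 0.13, edgeR adjusted p = 0.00362). LAMTOR1, the membrane anchor, was not called (−0.16, −0.13 and −0.08). LAMTOR3 stood at 37.0, 36.5 and 32.9 CPM in starved, 41.5, 39.4 and 40.6 CPM in 1 h fed and 42.7, 37.8 and 35.2 CPM in 4 h fed libraries with Torin1. Libraries without Torin1 had 64.0, 68.4 and 61.9 CPM in starved, 65.6, 60.4 and 70.7 CPM in 1 h fed and 46.9, 52.6 and 44.4 CPM in 4 h fed libraries. The groups did not overlap in any state, with the closest values after 4 h. Its log2 fold changes were −0.87 (SE 0.10, edgeR adjusted p = 6.02e-09), −0.70 (SE 0.10, edgeR adjusted p = 3.22e-07) and −0.32 (SE 0.10, edgeR adjusted p = 0.00761).

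LAMTOR5 went the other way in the first 2 states. Its level was 58.8, 51.9 and 61.9 CPM in starved and 58.2, 51.5 and 59.4 CPM in 1 h fed libraries with Torin1, against 28.0, 29.8 and 31.1 CPM in starved and 38.5, 32.2 and 22.8 CPM in 1 h fed libraries without. In 4 h fed cells it was 62.4, 50.5 and 52.1 CPM with Torin1 and 69.4, 46.8 and 59.4 CPM without, and these groups overlapped. Torin1 changed LAMTOR5 by 0.96 (SE 0.15, edgeR adjusted p = 5.10e-06), 0.86 (SE 0.15, edgeR adjusted p = 2.20e-05) and −0.09 (SE 0.14, edgeR adjusted p = 0.613). LAMTOR2 rose by 0.58 (SE 0.13) and 0.58 (SE 0.13) in starved and 1 h fed cells, and was at 0.05 after 4 h.

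FLCN, the folliculin tumour suppressor that acts on RRAGC and RRAGD as a GTPase-activating protein, was called in the 2 fed states and not in starved cells. It was at 37.7, 42.6 and 40.8 CPM in starved, 31.7, 36.3 and 35.4 CPM in 1 h fed and 32.4, 35.1 and 40.2 CPM in 4 h fed libraries with Torin1. Without Torin1 it was at 45.5, 45.1 and 47.0 CPM in starved, 47.4, 50.2 and 48.8 CPM in 1 h fed and 43.9, 39.0 and 49.0 CPM in 4 h fed libraries. Torin1 libraries were all lower in starved and 1 h fed cells, and 1 library overlapped after 4 h. FLCN was not called in starved cells (−0.19, SE 0.10, edgeR adjusted p = 0.119) and was lower in 1 h fed (−0.50, SE 0.10, edgeR adjusted p = 0.000104) and 4 h fed cells (−0.29, SE 0.10, edgeR adjusted p = 0.0169). Of its binding partners, FNIP1 was not called (−0.02, 0.12 and 0.15) and FNIP2 rose by 0.56 (SE 0.11, edgeR adjusted p = 8.53e-05) in starved and 0.72 (SE 0.11, edgeR adjusted p = 2.07e-06) in 1 h fed cells.

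In GATOR1, the Rag-inactivating complex, DEPDC5 fell in starved and 1 h fed cells, NPRL3 fell in all 3 states and NPRL2 was not called (0.06, −0.05 and −0.24). CYB561D2, which overlaps NPRL2 by up to 290 exonic bases at 23.2 CPM, against 31.2 CPM for NPRL2, changed by −1.51 (SE 0.16, edgeR adjusted p = 3.33e-09) in starved cells. DEPDC5 was at 21.9, 25.2 and 22.2 CPM in starved and 20.7, 20.8 and 22.3 CPM in 1 h fed libraries with Torin1, against 48.6, 49.8 and 41.8 CPM in starved and 55.5, 51.1 and 61.6 CPM in 1 h fed libraries without. After 4 h of feeding it was at 23.3, 24.5 and 23.9 CPM with Torin1 and 32.0, 22.9 and 21.6 CPM without. The 4 h groups overlapped and the others did not. Torin1 changed DEPDC5 by −1.02 (SE 0.12, edgeR adjusted p = 2.16e-08), −1.40 (SE 0.12, edgeR adjusted p = 3.82e-11) and −0.10 (SE 0.13, edgeR adjusted p = 0.542). NPRL3 fell, with log2 fold changes of −0.45 (SE 0.09), −0.49 (SE 0.09) and −0.57 (SE 0.09); MPG, which overlaps it on the other strand by up to 453 exonic bases at 47.3 CPM, moved the opposite way, by 1.21 (SE 0.15, edgeR adjusted p = 1.55e-07) in starved cells.

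In GATOR2, which opposes GATOR1, 3 of 5 subunits rose in starved cells and SEH1L fell. MIOS, WDR24 and WDR59 rose in starved and 1 h fed cells, and WDR59 also in 4 h fed cells. MIOS was at 23.4, 19.7 and 22.6 CPM in starved and 23.4, 24.8 and 26.2 CPM in 1 h fed libraries with Torin1, against 11.6, 12.6 and 13.6 CPM in starved and 13.3, 11.6 and 11.6 CPM in 1 h fed libraries without. The 4 h fed libraries had 24.6, 27.1 and 25.4 CPM with Torin1 and 26.5, 28.0 and 27.5 CPM without, and overlapped. Its log2 fold changes were 0.80 (SE 0.12, edgeR adjusted p = 1.78e-06), 1.03 (SE 0.12, edgeR adjusted p = 1.89e-08) and −0.09 (SE 0.12, edgeR adjusted p = 0.537). WDR24, another subunit, was at 32.0, 28.5 and 33.7 CPM in starved and 24.0, 26.4 and 30.1 CPM in 1 h fed libraries with Torin1, against 13.8, 13.5 and 17.4 CPM in starved and 15.1, 16.7 and 19.8 CPM in 1 h fed libraries without. After 4 h it was at 30.3, 33.1 and 42.7 CPM with Torin1 and 32.7, 30.6 and 38.1 CPM without, and these overlapped. It changed by 1.08 (SE 0.15, edgeR adjusted p = 1.41e-07), 0.64 (SE 0.14, edgeR adjusted p = 0.000273) and 0.07 (SE 0.14, edgeR adjusted p = 0.709). The transcript Z92544.2 overlaps WDR24 by up to 1241 exonic bases at 16.7 CPM and moved the other way in starved cells (−0.46, SE 0.17, edgeR adjusted p = 0.0190).

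WDR59 separated the groups in all 3 states. Its libraries with Torin1 had 60.6, 68.3 and 70.8 CPM when starved, 63.4, 62.9 and 69.0 CPM after 1 h and 64.9, 68.8 and 63.2 CPM after 4 h of feeding. Libraries without Torin1 had 36.7, 36.4 and 38.7 CPM in starved, 32.8, 47.3 and 39.0 CPM in 1 h fed and 40.7, 37.4 and 51.0 CPM in 4 h fed libraries. The log2 fold changes were 0.84 (SE 0.12, edgeR adjusted p = 2.08e-07), 0.71 (SE 0.11, edgeR adjusted p = 2.72e-06) and 0.61 (SE 0.11, edgeR adjusted p = 3.60e-05). SEH1L, a subunit shared with the nuclear pore, fell: it had 56.8, 51.1 and 53.0 CPM in starved, 70.6, 57.8 and 54.1 CPM in 1 h fed and 60.9, 43.6 and 45.8 CPM in 4 h fed libraries with Torin1. Without Torin1 it had 112, 127 and 129 CPM in starved, 117, 123 and 132 CPM in 1 h fed and 119, 127 and 105 CPM in 4 h fed libraries. No Torin1 library reached the lowest library without Torin1, and the log2 fold changes were −1.19 (SE 0.11, edgeR adjusted p = 1.84e-10), −1.03 (SE 0.11, edgeR adjusted p = 3.20e-09) and −1.22 (SE 0.11, edgeR adjusted p = 2.34e-10). SEC13, shared with the nuclear pore and COPII coats, was higher in 1 h fed cells (0.23, SE 0.08, edgeR adjusted p = 0.0161) and lower in 4 h fed cells (−0.31, SE 0.08, edgeR adjusted p = 0.00184).

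KPTN, the KICSTOR subunit kaptin, fell in each state. It was at 16.2, 12.1 and 14.0 CPM in starved, 11.7, 12.3 and 11.6 CPM in 1 h fed and 14.2, 11.7 and 15.0 CPM in 4 h fed libraries with Torin1. Without Torin1 it was at 35.9, 37.9 and 37.7 CPM in starved, 39.0, 35.8 and 35.3 CPM in 1 h fed and 39.5, 33.8 and 33.2 CPM in 4 h fed libraries. The 9 libraries with Torin1 lay between 11.6 and 16.2 CPM and the 9 without it between 33.2 and 39.5 CPM. Torin1 changed KPTN by −1.40 (SE 0.13, edgeR adjusted p = 4.60e-11), −1.63 (SE 0.13, edgeR adjusted p = 2.68e-12) and −1.38 (SE 0.13, edgeR adjusted p = 1.25e-10). ITFG2, another KICSTOR subunit, was lower in starved (−0.30, SE 0.12, edgeR adjusted p = 0.0309) and 1 h fed cells (−0.35, SE 0.12, edgeR adjusted p = 0.0118); FOXM1, which overlaps it by up to 651 exonic bases, averaged 211 CPM, against 48.4 CPM for ITFG2, and changed in starved cells by −0.43 (SE 0.08, edgeR adjusted p = 1.30e-05), so the ITFG2 level is uncertain.

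The amino acid sensors split. SLC38A9, the lysosomal arginine transporter that signals to the Rags, was at 26.6, 28.6 and 31.8 CPM in starved and 25.3, 26.4 and 28.8 CPM in 1 h fed libraries with Torin1, against 11.2, 11.0 and 17.3 CPM in starved and 12.9, 12.9 and 7.86 CPM in 1 h fed libraries without. After 4 h it was at 30.5, 26.2 and 33.4 CPM with Torin1 and 22.5, 22.5 and 22.7 CPM without. Every Torin1 library was above its controls, by log2 fold changes of 1.14 (SE 0.16, edgeR adjusted p = 4.16e-07), 1.26 (SE 0.17, edgeR adjusted p = 9.60e-08) and 0.41 (SE 0.16, edgeR adjusted p = 0.0242). SAMTOR, the S-adenosylmethionine sensor, fell in starved and 1 h fed cells: it had 13.6, 12.3 and 12.3 CPM in starved and 14.8, 16.6 and 16.6 CPM in 1 h fed libraries with Torin1, against 30.4, 30.3 and 27.8 CPM in starved and 33.4, 30.3 and 31.3 CPM in 1 h fed libraries without. The 4 h fed libraries had 16.1, 14.1 and 12.6 CPM with Torin1 and 15.1, 13.9 and 15.9 CPM without. The 4 h groups overlapped, and the log2 fold changes were −1.21 (SE 0.13, edgeR adjusted p = 9.87e-10), −0.98 (SE 0.12, edgeR adjusted p = 3.90e-08) and −0.07 (SE 0.13, edgeR adjusted p = 0.657).

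CASTOR1, a cytosolic arginine sensor, was the least abundant gene of the list. It had 2.30, 1.60 and 3.16 CPM in starved, 2.74, 2.02 and 2.81 CPM in 1 h fed and 3.13, 3.66 and 3.20 CPM in 4 h fed libraries with Torin1. Without Torin1 it had 0.778, 0.836 and 1.01 CPM in starved, 0.459, 2.03 and 1.25 CPM in 1 h fed and 2.10, 1.54 and 0.937 CPM in 4 h fed libraries. These are few counts, and the 1 h fed groups overlapped. The log2 fold changes were 1.41 (SE 0.43, edgeR adjusted p = 0.00543), 1.00 (SE 0.41, edgeR adjusted p = 0.0345) and 1.12 (SE 0.40, edgeR adjusted p = 0.0171). CASTOR2, its binding partner, was lower in 1 h (−0.25, SE 0.10, edgeR adjusted p = 0.0266) and 4 h fed cells (−0.28, SE 0.10, edgeR adjusted p = 0.0170); near-identical copies of this gene make its counts uncertain.

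Downstream of complex 1, the S6 kinase gene RPS6KB1 fell, with log2 fold changes of −0.53 (SE 0.09), −0.53 (SE 0.09) and −0.62 (SE 0.09). Its paralogue RPS6KB2 rose by 0.32 (SE 0.09, edgeR adjusted p = 0.00420) in starved and 0.24 (SE 0.09, edgeR adjusted p = 0.0237) in 1 h fed cells. RPS6KB1 held 26.5% ± 3.0 of the length-scaled RNA of the pair with Torin1 and 41.4% ± 2.40 without it in starved cells (SD, n = 3 each). RPS6, the ribosomal protein that both kinases phosphorylate, averaged 2898 ± 194 CPM with Torin1 and 3152 ± 119 CPM without it in starved cells and was not called (−0.12, −0.05 and 0.05). Its 13 named pseudogenes summed to 0.445 CPM. GRB10, an adaptor that complex 1 phosphorylates and that dampens insulin receptor signalling, averaged 57.6 ± 2.92 CPM with Torin1 and 33.2 ± 2.81 CPM without it in starved cells. It rose by 0.79 (SE 0.10, edgeR adjusted p = 2.51e-08) in starved and 0.90 (SE 0.10, edgeR adjusted p = 2.06e-09) in 1 h fed cells and was at 0.00 in 4 h fed cells.

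**Figure D3:**
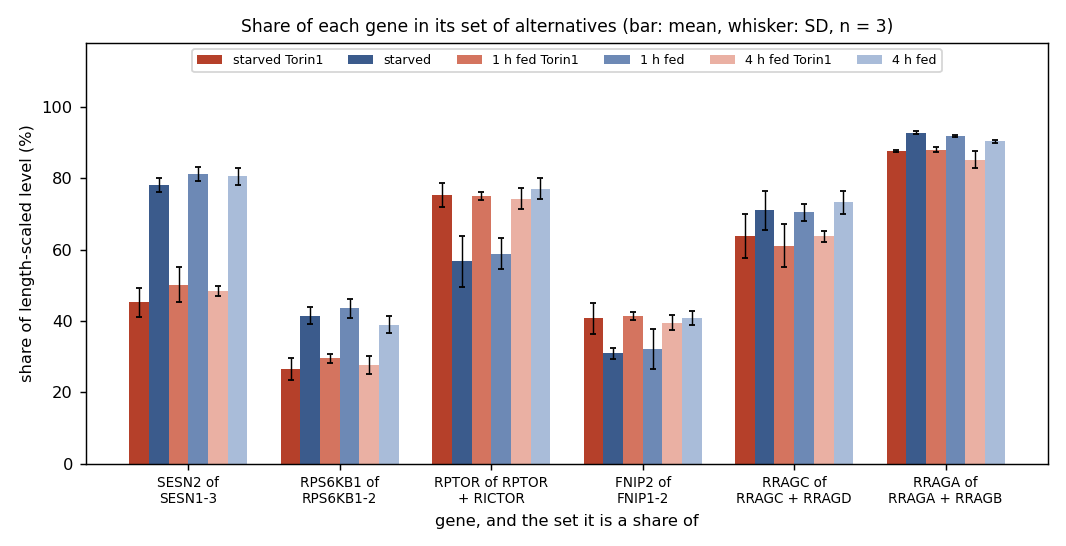
Share of the length-scaled RNA level of a set (y axis, percent, from 0) held by 1 gene (x axis) in the 6 groups, Torin1 in red and no Torin1 in blue; bars are means and whiskers SDs of 3 libraries. SESN2 and RPS6KB1 take smaller shares with Torin1 in every state, and the RPTOR share without Torin1 is 56.7% ± 7.22 in starved and 77.1% ± 2.90 in 4 h fed cells.

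The Torin1 calls held under all 13 alternative settings for 28 of 32 genes in starved, 29 of 36 in 1 h fed and 15 of 24 in 4 h fed cells. For each call that ended, the adjusted p given here is the largest over all these settings. In starved cells the call of DEPTOR ended without the Torin1 library 3 (adjusted p = 0.111) and that of RPS6KB2 without the Torin1 library 1 (0.0618). The call of PRR5 ended without library 1 or 2 of the control (no Torin1) or Torin1 library 3 (adjusted p up to 0.127), and that of ITFG2 without control library 2 or 3 or Torin1 library 1 or 3 (up to 0.243). In 1 h fed cells the call of DEPTOR ended without any 1 of the 6 libraries (up to 0.0917) and that of LAMTOR4 without any but control library 3 (up to 0.218). There CASTOR1 lost its call without library 1 or 3 of either group (up to 0.201), and RPS6KB2 without control library 1 or 3 or Torin1 library 2 or 3 (up to 0.0895). ITFG2 lost it without control library 2 or 3 or Torin1 library 2 (up to 0.0809), CASTOR2 without library 3 of either group (up to 0.216), and SEC13 without control library 3 (up to 0.155).

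In 4 h fed cells the call of MLST8 ended without library 2 of either group (adjusted p up to 0.303), and that of LAMTOR3 without control library 2 or Torin1 library 3 (up to 0.176). FLCN lost its call without control library 3 or Torin1 library 1 or 2 (up to 0.300), CASTOR1 without control library 3 or Torin1 library 2 (up to 0.0923), and CASTOR2 without library 1 of either group (up to 0.313). SLC38A9 lost it without library 1 or 3 of either group (up to 0.117) and SESN3 without control library 1 (0.0683). LAMTOR4 and SEC13 lost theirs with total-count scaling only (up to 0.0620 and 0.124).

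Promoters of the list were searched for short motifs as a description, without a test. RefSeq windows of 250 bases before and 50 after the start (GRCh38.p14) matched 39 of the 46 genes; DEPTOR, MLST8, AKT1S1, CASTOR2, WDR24, RRAGA and RRAGD had none. The core of the CLEAR element, GTCACGTG, which TFEB and TFE3 bind, was in 5 of the 39 windows on either strand, and in 2.93% of 27305 gene windows. The following 60 bases are given because they hold those matches, in capitals, 5′ to 3′ on the gene's strand.
FNIP1, chr5:131797159-131797218, minus strand: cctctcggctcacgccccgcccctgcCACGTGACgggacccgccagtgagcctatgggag
LAMTOR4, chr7:100148858-100148917, plus strand: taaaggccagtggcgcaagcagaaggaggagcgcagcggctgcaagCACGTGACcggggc
RRAGB, chrX:55717689-55717748, plus strand: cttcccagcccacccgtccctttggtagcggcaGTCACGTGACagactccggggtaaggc
RRAGC, chr1:38859851-38859910, minus strand: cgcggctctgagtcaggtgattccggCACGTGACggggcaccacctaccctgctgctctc
TSC2, chr16:2047843-2047902, plus strand: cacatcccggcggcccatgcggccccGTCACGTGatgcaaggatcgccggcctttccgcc
RRAGB holds the motif on both strands in 10 overlapping bases. With Torin1 these 5 genes did not share a direction: in starved cells RRAGC changed by −0.74, TSC2 by 0.67, and FNIP1, LAMTOR4 and RRAGB were not called. The C/EBP-ATF core TGATGNAA was in 1 of the 39 windows, that of TSC2, where it overlaps the CLEAR core, and in 4.46% of all windows. It was in neither the DDIT4 nor the SESN2 window. The forkhead core TTGTTTAC was in 0 of the 39 and in 1.18% of all windows. A match describes letters in these windows and not a bound site. The absence of a match does not show that a gene lacks a site, because only exact cores inside these windows were searched.

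Feeding for 1 h moved no gene of the list past the threshold. Of the 46 genes, edgeR called 0 higher and 0 lower in 1 h fed than in starved cells, against 0.481% and 0.164% of all genes tested. At an unadjusted p under 0.05 edgeR gave 4 genes, 8.7% of the list against 9.29% of all genes: TSC1 (0.28, SE 0.11), DEPDC5 (0.26, SE 0.12), CASTOR2 (0.25, SE 0.10) and RRAGA (−0.21, SE 0.08). The DESeq2 Wald test and limma-voom also called 0. Without the 1 h fed library 1, TSC1 was called (adjusted p = 0.0178).

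Feeding for 4 h, in contrast, moved 24 of the 46 genes. Compared with starved cells, 14 were higher, against 23.2% of all genes tested, and 10 lower, against 19.1%. The median log2 fold change was 0.05 in the list and 0.00 over all genes. This comparison shares the starved libraries without Torin1 with the first Torin1 comparison, and the 4 h fed libraries without Torin1 with the third, so no overlap between them is read. The scaffold RPTOR averaged 67.0 ± 7.86 CPM in 4 h fed and 33.6 ± 5.16 CPM in starved cells, a change of 0.99 (SE 0.11, edgeR adjusted p = 1.79e-08). Of the 5 GATOR2 genes 3 rose, WDR24 by 1.19 (SE 0.15, edgeR adjusted p = 7.75e-08), MIOS by 1.12 (SE 0.12, edgeR adjusted p = 1.20e-08) and SEC13 by 0.62 (SE 0.08, edgeR adjusted p = 4.44e-07). WDR59 (0.21, edgeR adjusted p = 0.161) and SEH1L (−0.07, edgeR adjusted p = 0.656) were not called.

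Further rises after 4 h were those of LAMTOR5 (0.99, SE 0.15, edgeR adjusted p = 9.04e-06), GRB10 (0.91, SE 0.10, edgeR adjusted p = 6.44e-09), SLC38A9 (0.78, SE 0.17, edgeR adjusted p = 0.000298), FNIP2 (0.51, SE 0.12, edgeR adjusted p = 0.000530) and LAMTOR2 (0.47, SE 0.13, edgeR adjusted p = 0.00518). MTOR rose by 0.31 (SE 0.08, edgeR adjusted p = 0.00235), with 129, 143 and 147 CPM in 4 h fed and 109, 112 and 117 CPM in starved libraries, which did not overlap. The smaller rises were RPS6KB2 (0.38), PRR5 (0.41), TSC2 (0.23) and MLST8 (0.23). The falls were led by SAMTOR, at 15.0 ± 1.01 CPM in 4 h fed and 29.5 ± 1.45 CPM in starved cells (−0.98, SE 0.13, edgeR adjusted p = 1.79e-07), DEPDC5 (−0.87, SE 0.12, edgeR adjusted p = 9.75e-07) and DEPTOR (−0.78, SE 0.21, edgeR adjusted p = 0.00368). AKT1S1 (−0.56, SE 0.10), LAMTOR3 (−0.43, SE 0.10), RHEB (−0.37, SE 0.09), TSC1 (−0.35, SE 0.11), RRAGA (−0.30, SE 0.08), RPS6 (−0.22, SE 0.07) and MAPKAP1 (−0.22, SE 0.08) fell less.

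Neither SESN2 (0.09, SE 0.15, edgeR adjusted p = 0.692) nor FLCN (−0.06, SE 0.10, edgeR adjusted p = 0.663) was called for 4 h of feeding. DDIT4 was lower in all 3 of the 4 h fed libraries than in the starved ones, but its change of −0.61 (SE 0.28, edgeR adjusted p = 0.0931) was not called. It was called by 3 of the 13 alternatives. These were limma-voom (adjusted p = 0.0145), edgeR fitted on these groups only (0.0472) and edgeR with the replicate number as a block. The block gave the smallest adjusted p of these, which is given with the processing checks at the end. DDIT4 was highest in library 1 of both groups, so this call depends on whether the replicate number is modelled. In all, 17 of the 24 calls held under all 13 alternatives, and the adjusted p given for the others is the largest over these. Those of MLST8, MAPKAP1, PRR5, TSC1, TSC2, LAMTOR2 and RPS6 ended when 1 library was left out: that of LAMTOR2 without the starved library 2 (adjusted p = 0.0698), that of RPS6 without the 4 h fed library 3 (0.0606), and that of TSC1 without the starved library 3 or the 4 h fed library 1 (up to 0.0573). PRR5 and TSC2 lost theirs without the starved library 1 or 2 or the 4 h fed library 3 (up to 0.159 and 0.242). MAPKAP1 lost it without any but the 4 h fed library 2 (up to 0.0993), and MLST8 without any but the 4 h fed library 3 (up to 0.149).

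With Torin1 present, 1 gene of the list was called with feeding. After 1 h, edgeR called 0 genes higher and 0 lower, against 0.274% and 0.128% of all genes. After 4 h, 0 were higher, against 0.829%, and 1 was lower, against 0.975%. That gene was CASTOR2 (−0.38, SE 0.10, edgeR adjusted p = 0.0391), and its call ended when any 1 of the 6 libraries was left out (adjusted p up to 0.215). At an unadjusted p under 0.05 edgeR gave 4 genes after 1 h, FLCN, SAMTOR, SESN1 and DDIT4, and 3 after 4 h, RRAGD, CASTOR2 and SESN3. These are 8.7% and 6.52% of the list, against 11.1% and 13.1% of all genes. DDIT4 showed the largest difference after 1 h, at 11.6 ± 3.23 CPM in 1 h fed and 21.7 ± 4.92 CPM in starved cells with Torin1 (−0.92, SE 0.33, edgeR adjusted p = 0.343). The 2 of the 13 alternatives that called it were edgeR fitted on these groups only (adjusted p = 0.0357) and edgeR with the replicate number as a block. The block gave the smaller adjusted p, which is given with the processing checks at the end. DDIT4 was highest in library 1 of both groups here as well. The DESeq2 Wald test and limma-voom called 0 genes after 1 h, and 2 and 1 genes after 4 h.

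Whether Torin1 changed the response to feeding was tested directly, as the Torin1 effect in fed cells minus that in starved cells. At 1 h, edgeR called 0 genes higher and 0 lower, against 0.0122% and 0.0548% of all genes tested. At an unadjusted p under 0.05 edgeR gave 4 genes, FLCN, DEPDC5, WDR24 and CASTOR2, 8.7% of the list against 6.53% of all genes, and the DESeq2 Wald test and limma-voom called 0. At 4 h the difference was positive in 6 genes, against 9.74% of all genes, and negative in 12, against 16.0%.

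This difference is also the 4 h feeding effect with Torin1 minus that without, from the same libraries, so its sign is tied to that of feeding without Torin1 and no match between them is read. For RPTOR the difference was −1.11 (SE 0.16, edgeR adjusted p = 1.96e-06): feeding for 4 h changed it by −0.12 (SE 0.11) with Torin1 and by 0.99 (SE 0.11) without. LAMTOR5 differed by −1.05 (SE 0.21, edgeR adjusted p = 0.000440), with feeding effects of −0.06 with Torin1 and 0.99 without. The difference was −1.01 (SE 0.20, edgeR adjusted p = 0.000231) for WDR24, −0.89 (SE 0.17, edgeR adjusted p = 0.000185) for MIOS, −0.79 (SE 0.14, edgeR adjusted p = 3.83e-05) for GRB10 and −0.73 (SE 0.23, edgeR adjusted p = 0.0159) for SLC38A9. It was −0.63 (SE 0.16, edgeR adjusted p = 0.00333) for FNIP2, −0.62 (SE 0.22, edgeR adjusted p = 0.0322) for PRR5, −0.54 (SE 0.19, edgeR adjusted p = 0.0310) for LAMTOR2 and −0.46 (SE 0.12, edgeR adjusted p = 0.00369) for SEC13.

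Among the positive differences, SAMTOR differed by 1.14 (SE 0.18, edgeR adjusted p = 1.28e-05), with a feeding effect of 0.16 with Torin1 and −0.98 without. DEPDC5 differed by 0.92 (SE 0.18, edgeR adjusted p = 0.000178), with 0.05 with Torin1 and −0.87 without. Smaller differences were those of LAMTOR3 (0.55, SE 0.14, edgeR adjusted p = 0.00337), RRAGD (0.51, SE 0.16, edgeR adjusted p = 0.0196), AKT1S1 (0.45, SE 0.14, edgeR adjusted p = 0.0188) and RHEB (0.43, SE 0.13, edgeR adjusted p = 0.0126). The 4 h difference was not called for the 4 marker genes: it was 0.23 for DDIT4 (95% interval −0.68 to 1.14), −0.07 for SESN2 (−0.56 to 0.41), −0.11 for FLCN (−0.43 to 0.21) and −0.15 for MTOR (−0.40 to 0.10).

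**Figure D4:**
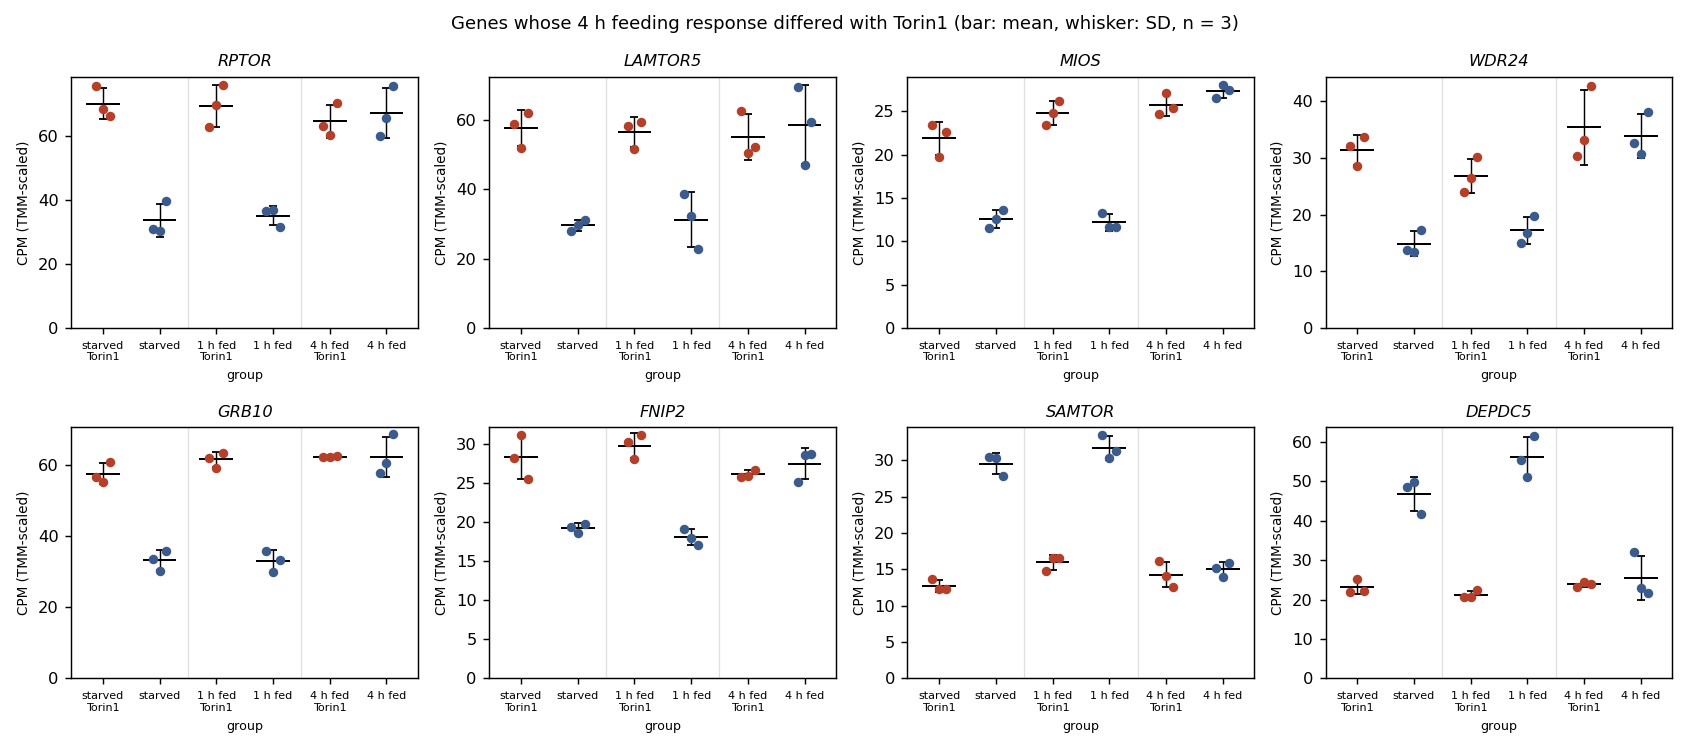
CPM of 8 genes whose response to 4 h of feeding differed with Torin1 (y axes, from 0) in each library by group (x axes; Torin1 in red, no Torin1 in blue), with the mean and SD of 3 libraries. In the first 6 genes the starved and 1 h fed groups without Torin1 are the low ones; in SAMTOR and DEPDC5 they are the high ones, and 4 h fed cells without Torin1 lie near the groups with Torin1.

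Of the 18 differences at 4 h, 10 held under all 19 alternatives, and the adjusted p given for the others is the largest over these. Those of AKT1S1, PRR5, RHEB, RRAGD, LAMTOR2, CASTOR2, SLC38A9 and RPS6KB2 ended when 1 library was left out. RHEB lost it without the 4 h fed library 3, the starved Torin1 library 2 or the 4 h fed Torin1 library 1 (adjusted p up to 0.0553). RRAGD lost it without library 1 of the starved group, the 4 h fed group or the starved Torin1 group (up to 0.0644), and SLC38A9 without starved library 1 or 2 or 4 h fed Torin1 library 2 (up to 0.0649). AKT1S1 depended on starved library 2, 4 h fed library 3, starved Torin1 libraries 2 and 3 and 4 h fed Torin1 library 3 (up to 0.0687). LAMTOR2 depended on starved library 2, 4 h fed libraries 1 and 3, starved Torin1 library 1 and 4 h fed Torin1 libraries 2 and 3 (up to 0.131). PRR5 depended on starved libraries 1 and 2, 4 h fed library 3, starved Torin1 library 3 and 4 h fed Torin1 libraries 1 and 2 (up to 0.0993). CASTOR2 (−0.38, SE 0.14, edgeR adjusted p = 0.0447) and RPS6KB2 (−0.35, SE 0.13, edgeR adjusted p = 0.0470) depended on libraries 1 and 3 of both starved groups and libraries 1 and 2 of 4 h fed Torin1 cells, and on 4 h fed libraries 1 and 2 for CASTOR2 and 1 and 3 for RPS6KB2 (up to 0.121 and 0.174).

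Some genes also differed in which transcript they used, NPRL3 and LAMTOR3 in all 3 states. Among 38 list genes with at least 2 isoforms tested, the edgeR gene-level test of isoform use called 5 for Torin1 in starved cells, with 15.2% of 10698 genes called. It called 5 in 1 h fed cells, against 16.2%, and 8 in 4 h fed cells, against 11.3%. On simulated counts this test called more unchanged genes than its threshold allows. A limma test of the log2 ratio of each isoform to the gene's other isoforms, with 0.5 added to both counts, kept to its threshold there and was added after the data had been seen. It called 5 list genes in starved cells, against 13.6% of all genes, 6 in 1 h fed cells, against 15.5%, and 6 in 4 h fed cells, against 9.98%. NPRL3, LAMTOR3 and RPS6 were called in all 3 states by both tests.

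NPRL3, a GATOR1 subunit, differed with Torin1 in the estimated shares of 2 coding isoforms. MPG, on the other strand, overlaps NPRL3 by up to 453 exonic bases, at 47.3 CPM against 89.8 CPM for NPRL3. Torin1 raised MPG by 1.21 (SE 0.15) under starvation, by 1.31 (SE 0.15) at 1 h and by 1.17 (SE 0.15) at 4 h of feeding. Whether the counting used strand is not given, and any part of MPG reads in the NPRL3 isoform shares was not tested. NPRL3-211, with 14 exons and 1707 coding bases, took 76.7, 78.6 and 74% of NPRL3 isoform counts in starved libraries with Torin1, against 46.7, 35.4 and 40.8% in those without. NPRL3-201, with 12 exons, 1632 coding bases and a start 348 bases further downstream, took 14.7, 10.4 and 18.7% with Torin1, against 39.2, 42.2 and 40.7% without. The groups did not overlap in either isoform. NPRL3-201 averaged 14.8% ± 2.08 with Torin1 and 41.9% ± 2.28 without in 1 h fed cells, and 14.4% ± 1.89 with Torin1 and 40.2% ± 8.65 without in 4 h fed cells (SD, n = 3 each). Its log2 ratio to the other isoforms differed by −2.04 (SE 0.29, limma adjusted p = 7.75e-05), −2.05 (SE 0.29, limma adjusted p = 0.000116) and −1.99 (SE 0.29, limma adjusted p = 0.000272) across the 3 states, where the p is that of the gene. The limma call held whichever library was left out. The edgeR adjusted p was 0.00373, 0.00297 and 0.00163; without 1 h fed Torin1 library 1 its call in 1 h fed cells ended (0.0508), and in its Simes form the call in 4 h fed cells was absent (0.0625).

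LAMTOR3, a Ragulator subunit whose gene total fell in all 3 states, had a larger share of its counts in its long isoform with Torin1. A larger share of a smaller total need not be a higher level, and the level of this isoform was not tested. LAMTOR3-202, of 4226 bases with a 3′ UTR of 3661 bases, took 52.6, 61 and 56.3% of LAMTOR3 isoform counts in starved libraries with Torin1, against 31, 34.2 and 32.9% in those without. The groups did not overlap. The shares were 53.5% ± 4.63 with Torin1 and 30.9% ± 2.68 without in 1 h fed cells, and 59.8% ± 4.77 with Torin1 and 37.6% ± 1.68 without in 4 h fed cells. The log2 ratio differed by 1.43 (SE 0.23, limma adjusted p = 0.00241), 1.36 (SE 0.23, limma adjusted p = 0.00309) and 1.31 (SE 0.23, limma adjusted p = 0.00581) across the 3 states, and the limma call held without any 1 library. The edgeR adjusted p was 0.00206, 0.00153 and 0.00549, the Simes form called none of them (0.715, 0.532 and 0.808), and the edgeR call in 4 h fed cells ended without Torin1 library 1 (0.0688).

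LAMTOR5, another Ragulator subunit, was called in starved and 1 h fed cells by the limma test. LAMTOR5-206 took 83.9, 91.2 and 87.2% of LAMTOR5 isoform counts with Torin1, against 53.3, 39.3 and 41.7% without. After 4 h of feeding it took 87, 90.3 and 81.8% with Torin1 and 77.6, 74 and 78.8% without. The groups did not overlap in these states, and the libraries without Torin1 were higher after 4 h of feeding than when starved. Its log2 ratio differed by 3.29 (SE 0.30, limma adjusted p = 5.28e-05) in starved and 1.79 (SE 0.30, limma adjusted p = 0.00494) in 1 h fed cells, and these calls held whichever library was left out. In 4 h fed cells limma did not call it (adjusted p = 0.133). The edgeR gene-level test called it in none of the states (adjusted p = 0.0623, 0.302 and 0.0549), while its Simes form called it in 4 h fed cells (0.0320) and not in the others (0.423 and 0.872).

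RPS6-201 took 65.7% ± 0.34 of RPS6 isoform counts with Torin1 and 62.3% ± 1.14 without in 4 h fed cells, and the limma call of RPS6 in starved and 4 h fed cells ended without any 1 library (adjusted p up to 0.172 and 0.152). Of the other genes, both tests called TSC1 and RPS6KB2 in 1 h fed cells and SESN1 and RPS6KB2 in 4 h fed cells. The limma calls of RPS6KB2 ended without control library 2 or Torin1 library 3 in 1 h fed cells (up to 0.0586) and without any but Torin1 library 3 in 4 h fed cells (up to 0.103). TSC1 in starved and MAPKAP1 in 4 h fed cells were called by limma alone, with TSC1 holding only without control library 2 (up to 0.0758) and MAPKAP1 losing its call without any 1 of the 6 (up to 0.116). The edgeR test alone called TSC2 and CASTOR1 in starved cells and RPTOR, TSC1 and RPS6KB1 in 4 h fed cells. The edgeR count was 3 without starved Torin1 library 2, 3 without 1 h fed Torin1 library 1 or 3, and 4 or 5 without 4 h fed library 1 or Torin1 library 1 or 2. RSEM divides reads among isoforms by estimate, so these shares are less certain than gene totals.

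**Figure D5:**
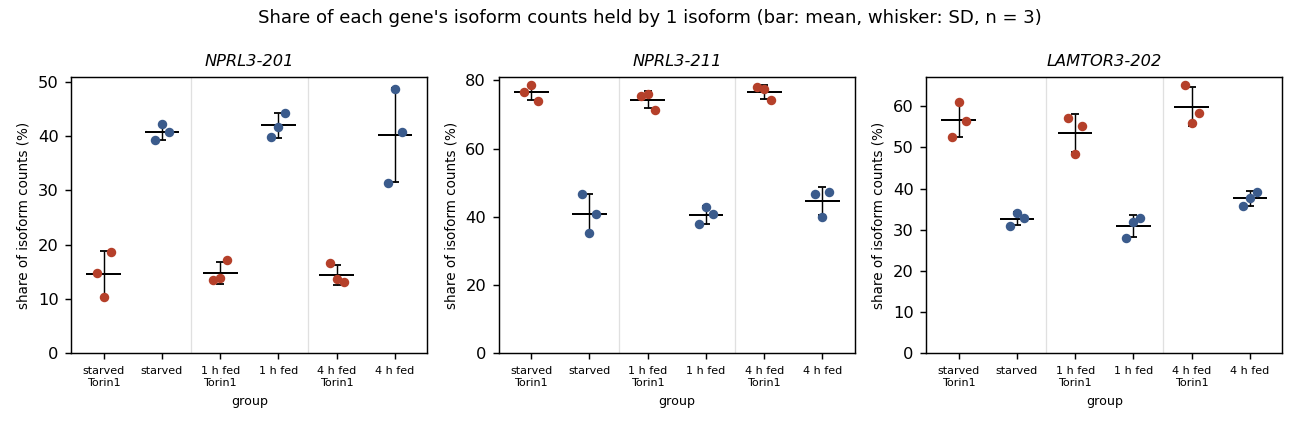
Share of a gene's isoform counts (y axes, percent, from 0) taken by NPRL3-201, NPRL3-211 and LAMTOR3-202 in each library by group (x axes; Torin1 in red, no Torin1 in blue), with the mean and SD of 3 libraries. NPRL3-201 is lower and NPRL3-211 and LAMTOR3-202 are higher in all 9 libraries with Torin1.

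A second list of 48 genes around the pathway, such as its upstream receptors, AMPK, autophagy kinases and transcription factors, was tested beside them. Torin1 raised 21 and lowered 14 of them in starved cells, where 33.9% of all genes tested were higher and 29.6% lower. It raised 19 and lowered 12 in 1 h fed cells, with 33.2% and 29.9% of all genes, and raised 15 and lowered 15 in 4 h fed cells, with 27.4% and 28.6%. Feeding for 4 h raised 21 and lowered 10, with 23.2% and 19.1% of all genes. The 5 highest with Torin1 in starved cells were the autophagy kinase ULK2 (1.83, SE 0.18, edgeR adjusted p = 3.86e-10), the insulin receptor INSR (1.75, SE 0.13, edgeR adjusted p = 4.63e-13), the lysosomal transcription factor MITF (1.70, SE 0.24, edgeR adjusted p = 3.32e-07), the DDIT4 paralogue DDIT4L (1.45, SE 0.49, edgeR adjusted p = 0.0108) and the kinase AKT1 (1.32, SE 0.11, edgeR adjusted p = 5.46e-12). The 5 lowest were SGK1, a kinase that complex 2 activates (−1.73, SE 0.28, edgeR adjusted p = 3.37e-06), PRR5L (−1.10, SE 0.45, edgeR adjusted p = 0.0330), the AMPK subunit PRKAB1 (−1.01, SE 0.10, edgeR adjusted p = 5.06e-10), the lysosomal transcription factor TFE3 (−0.76, SE 0.10, edgeR adjusted p = 4.12e-08) and ATF4, the amino acid response factor (−0.74, SE 0.07, edgeR adjusted p = 8.24e-11). Under Torin1, 1 h of feeding raised 1 of the 48 genes, ATF4, with 0.274% of all genes, and 4 h lowered 2, INSR and IGF1R, with 0.975%; IGF1R was named after its values were seen. The 4 h difference between Torin1 effects was positive in 6 and negative in 14, with 9.74% and 16.0% of all genes.

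Per transcript length, in TPM computed over the annotated isoforms, RPS6 led the list at 5391 ± 189 in starved cells without Torin1, followed by AKT1S1 at 256 ± 17.0, RHEB at 209 ± 7.22 and LAMTOR4 at 171 ± 8.35 (SD, n = 3). With Torin1, AKT1S1 in starved cells was at 89.8 ± 14.3, below several other genes besides RPS6. Among these were LAMTOR5 at 168 ± 10.5, LAMTOR4 at 165 ± 17.6, MLST8 at 123 ± 13.5 and LAMTOR2 at 119 ± 16.5. MTOR was at 30.1 ± 2.64 with Torin1 and 26.3 ± 1.67 without. RPTOR was at 21.3 ± 1.06 with Torin1 and 9.73 ± 1.60 without, and RICTOR at 6.99 ± 0.892 with Torin1 and 7.39 ± 1.18 without, so RPTOR made up 75.3% ± 3.27 of the pair with Torin1 and 56.7% ± 7.22 without it. CASTOR1 was lowest, at 3.53 ± 1.22 with Torin1 and 1.11 ± 0.159 without.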

How the data were processed

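RNA-seq was analysed from the authors' deposited tables of gene and isoform expected counts, estimated counts that RSEM assigns to each feature; the submitters' processing notes name STAR, RSEM and DESeq2, without versions. Those notes give a C. elegans genome for alignment, while the identifiers are human; the human build is not given in the sources used here. The 46 members and all lists were chosen with earlier results of these data known.

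Gene counts, of which 3.32% of values were not whole, were rounded. Genes were kept by edgeR's filterByExpr at a minimum count of 10, scaled by TMM, and fitted with 6 group means (edgeR 4.0.16, robust quasi-likelihood F test, R 4.3.3, 12 residual degrees of freedom, common biological variation 10.6%). P-values were adjusted over all 16414 genes by Benjamini-Hochberg and called under 0.05; the SE is the log2 fold change divided by the root of F. The interaction is the Torin1 effect when fed minus that when starved. Isoform use was tested with edgeR's diffSpliceDGE on 48658 isoforms of 10698 genes, and with limma on log2 isoform ratios (Simes p per gene), added after the data had been seen. Length-scaled levels divide isoform counts by GENCODE 29 transcript lengths, available for 205883 of 227368 isoforms that held 98.9% of counts. The genes described library by library were the 4 markers, those called in 1 direction in all 3 Torin1 comparisons with a log2 fold change of at least 0.8 in any of them, and those whose called 4 h interaction was at least 0.8. Of the 48 other pathway genes, the 5 highest and 5 lowest called in starved cells, at a mean of at least 1 CPM, were named.

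Alternatives were DESeq2 1.42.0 size factors and Wald test, total-count scaling, limma-voom (limma 3.58.1), no filter, a replicate block, only the groups compared, and leaving out each library. Scripts were tested on simulated counts, where the edgeR isoform test called more unchanged genes than its threshold allows. Libraries held 10510689 to 13690035 counts, and floors and intervals at 95% cover counting and replicate spread in these libraries only.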

Additional observations from a re-analysis of the deposited data

Results flagged for a closer look

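The Torin1 effect in 4 h fed cells differed from that in starved cells in 18 of the 46 genes, by the interaction term of the edgeR fit (adjusted p under 0.05). This was 39.1% of the list, against 25.8% of all genes tested. Of the 18 calls, 10 held under all 19 alternative settings and 8 were lost in some. Values are the effect in 4 h fed cells minus the effect in starved cells, on the log2 scale. The difference was negative for RPTOR (−1.109), LAMTOR5 (−1.049), WDR24 (−1.014), MIOS (−0.886), GRB10 (−0.792), SLC38A9 (−0.727), FNIP2 (−0.627), PRR5 (−0.623), LAMTOR2 (−0.535), SEC13 (−0.458), CASTOR2 (−0.378) and RPS6KB2 (−0.352). It was positive for SAMTOR (1.137), DEPDC5 (0.92), LAMTOR3 (0.551), RRAGD (0.507), AKT1S1 (0.446) and RHEB (0.434).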

How the results depend on the processing

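Over all alternatives, no called member changed sign. Of the genes called by Torin1, 28 of 32 in starved, 29 of 36 in 1 h fed and 15 of 24 in 4 h fed cells stayed called under all 13 settings; 17 of 24 did so for 4 h of feeding, 0 of 1 for 4 h of feeding under Torin1 and 10 of 18 for the 4 h interaction under 19 settings. With 1 library left out, 29 to 32, 31 to 33 and 21 to 25 members were called for Torin1 in starved cells, 1 h fed cells and 4 h fed cells, 19 to 25 for 4 h of feeding and 13 to 18 for the 4 h interaction. For 1 h of feeding the count ranged between 0 and 1 with a library left out, and for 4 h of feeding under Torin1 it was 0 whichever library was left out. Only the groups compared gave 1 call for 1 h and 2 for 4 h of feeding under Torin1, and at 4 h no filter and the DESeq2 Wald test gave 2 each. Changed isoform use was called in 2, 1 and 4 members by the Simes test in starved cells, 1 h fed cells and 4 h fed cells, and in 3 to 6, 3 to 7 and 4 to 6 members with 1 library left out.

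Effects near 0 changed sign without being called. For MTOR, Torin1 in 1 h fed cells gave −0.035 with DESeq2 size factors and with the Wald test, −0.018 with only the groups compared, and −0.061 to 0.077 with a library left out, and Torin1 in 4 h fed cells gave −0.058 to 0.038. Feeding for 1 h under Torin1 gave MTOR −0.037 with total counts, −0.015 with only the groups compared and −0.002 to 0.047 with a library left out. For SESN2 the ranges with a library left out were −0.033 to 0.229 for 4 h of feeding, −0.051 to 0.27 and −0.087 to 0.105 for 1 h and 4 h under Torin1, and −0.219 to 0.044 for the 4 h interaction. For DDIT4 they were −0.443 to 0.073 for 1 h of feeding and −0.048 to 0.41 for the 4 h interaction. The cause was not tested.

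Libraries with the same replicate number correlated at −0.032 to 0.162 after removal of group means, and no comparison had every pair over 0.1, so the libraries were not treated as paired. Every library matched its own number best for 4 h of feeding and for 1 h and 4 h of feeding under Torin1, a hint from the data. The share of counts from mitochondrial genes was also lowest in library 1 of every group. With the replicate number as a block, calls were 14 higher and 18 lower, 15 and 21, and 7 and 19 for Torin1 in the 3 states, 14 and 11 for 4 h of feeding, 0 and 0 for 1 h of feeding, 0 and 1 and 0 and 3 for 1 h and 4 h of feeding under Torin1, 0 and 1 for the 1 h interaction, which was DDIT4 at −0.728, and 6 and 12 for the 4 h interaction. DDIT4, highest in library 1 of every group, was called under the block also for 4 h of feeding (−0.598, edgeR adjusted p = 4.25e-06) and for 1 h (−0.914, 8.91e-06) and 4 h of feeding under Torin1 (−0.391, 0.0458). Depth limits CASTOR1 most, at 0.459 to 3.66 CPM, against a floor of 0.219 to 0.285 CPM.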
